A study of Mus musculus with 4 samples.

Results

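The cortical layer 2-3 spots are the 600 spots, of 13452 kept spots in 4 Visium sections of mouse brain, that carried the most RNA of 5 genes of the superficial cortex. A Visium spot is a small area of tissue that holds several cells or parts of cells, so a spot is not a cell and its layer name describes the RNA it carries. In each section, spots with at least 500 unique molecular identifiers (UMIs, each standing for 1 captured molecule) and 250 genes were kept. Each was scored by the mean, over Lamp5, Kcnv1, Cacng3, Pdzrn3 and Stard8, of the natural log of 1 plus the UMIs per 10000, and the 150 highest were taken. The members therefore made up 4.17%, 4.53%, 4.69% and 4.49% of the kept spots in MF replicates 1 and 2 and HF replicates 1 and 2, and where 4 values are given they follow this order.

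The sections came from wild-type male C57BL/6J offspring at postnatal day 21. Their mothers, 8 weeks old at the start, ate a diet with 2 mg/kg folic acid (FA, the MF group, 2 sections) or 20 mg/kg FA (the HF group, 2 sections) for 2 weeks before mating and through pregnancy and lactation. Neither group carried an altered allele, and the litters of the animals were not named in the sources used here, so the p-values measure the spread between 2 sections per diet. The assay reads RNA through probe pairs that bind it in a 5 µm section of fixed tissue, so that only the 19465 features with a probe were counted.

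Layers 2 and 3 lie under the cell-poor layer 1 at the surface of the neocortex. Their excitatory pyramidal neurons send axons to other cortical areas of the same and the opposite side, whereas layer 4 receives much of the thalamic input, and layers 5 and 6 send axons out of the cortex. Interneurons, astrocytes, vessels and a thin supply of myelinated fibres lie between the pyramidal cells. When neurons fire, a set of immediate early genes is transcribed within minutes, first transcription factors such as Fos, Egr1 and Junb and then proteins that act at synapses, such as Arc. Folate carries the methyl groups and other carbon units used for nucleotide synthesis and for methylation.

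The sections differed in depth. Summed over the 150 members, they held 3903547, 1775878, 1357431 and 2028727 UMIs, and the median member carried 25972.5, 11402, 8508 and 13336 UMIs, against 23387.5, 12117.5, 9349 and 11761 in the other kept spots. MF replicate 1 was thus the deepest section for the members and for the rest. Of the 4992 barcoded positions of the array, 2474 lay under tissue in all 4 sections, because a barcode marks a position and not a cell. MF replicate 1 also reached the first row of the array, with 27 kept spots there, 15 of them members, and the tissue edge beyond that row was not seen.

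The score chose the members, so the values of its 5 genes describe the choice and carry no test. The last member taken in each section scored 1.051, 1.037, 1.113 and 1.106, and the first spot outside scored 1.051, 1.036, 1.104 and 1.105, so the limit of 150 fell within a continuous range of scores. The members' medians were 1.232, 1.221, 1.282 and 1.267, and those of the other spots 0.365, 0.348, 0.344 and 0.360. Lamp5, which encodes a membrane protein of neurons, stood at 691.9, 688.7, 749.9 and 608.3 UMIs per 1000000 UMIs of the summed members (CPM) and at 116.6, 102.4, 105.5 and 98.9 CPM in the other spots. Cacng3, an auxiliary subunit of AMPA-type glutamate receptors, stood at 528.2, 592.4, 576.1 and 630.4 CPM against 150.3, 150, 135.3 and 169.6 CPM. Kcnv1, a silent potassium channel subunit, stood at 195.2, 223.0, 301.3 and 278.0 CPM in the members. All 5 genes were detected together in 125, 84, 52 and 95 of the 150 members, an order that follows the depth of the sections.

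Position on the array was not used by the rule. The members formed an outer band along the dorsal and lateral surface of the cortex, with some at the medial edge of the tissue and a few scattered ventrally. Of the neighbouring kept spots of a member, 59.0%, 46.1%, 41.2% and 46.7% were members too, against the 4.17% to 4.69% that members made up of all kept spots. The mean over the sections was 48.2% ± 7.6 (SD, n = 4), and the number of other members beside a member was therefore far above the overall share in every section. The members fell into 11, 28, 37 and 20 connected groups, the largest with 50, 81, 41 and 66 spots, and 4, 19, 25 and 13 members had no member beside them. HF replicate 1, the shallowest section, had the most groups and MF replicate 1, the deepest, the fewest.

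**Figure D1:**
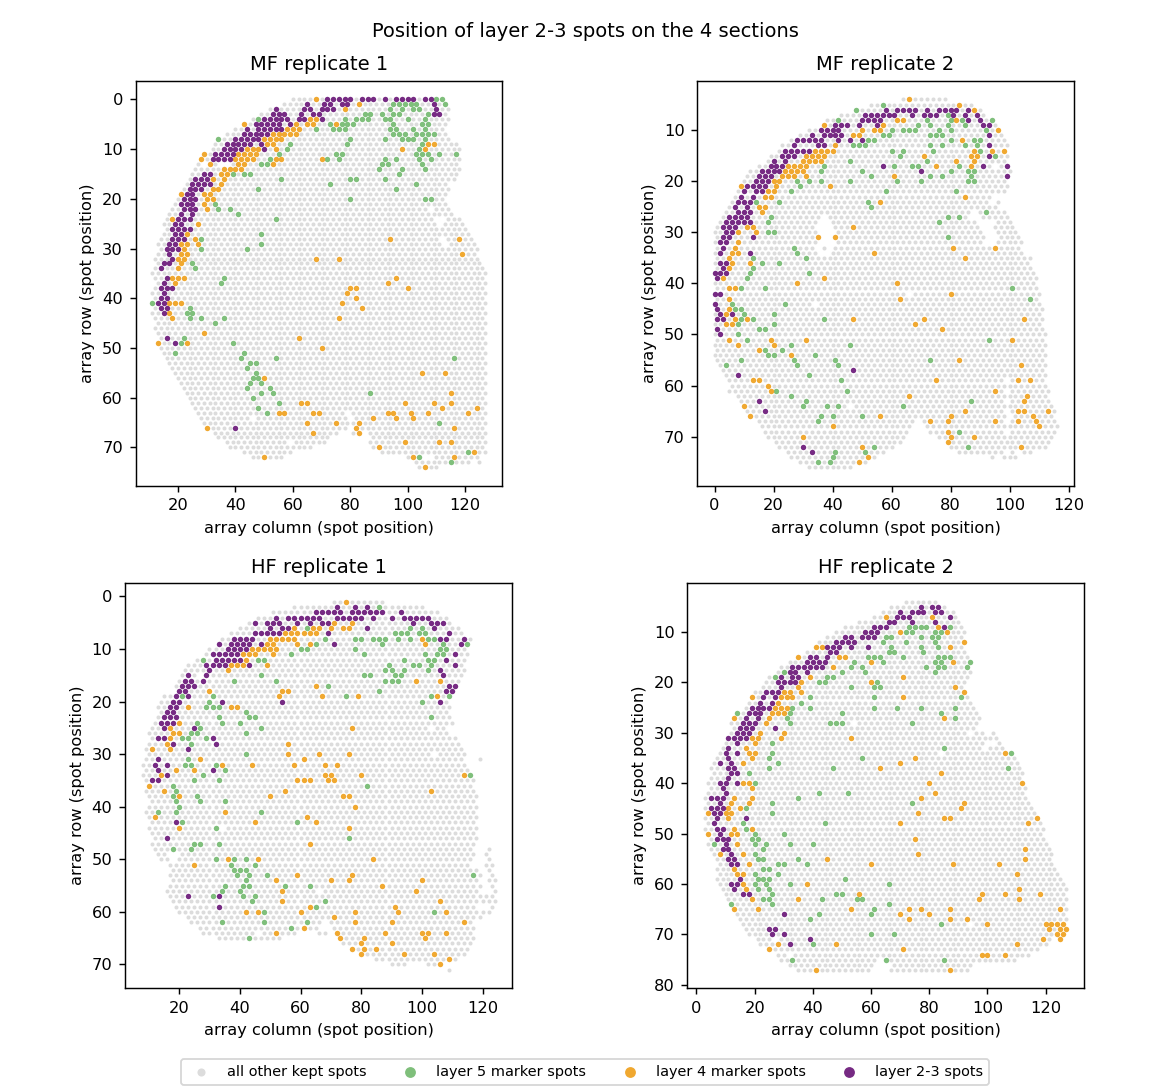
Position of the kept spots on the array in each of the 4 sections, in array columns and rows, with the 150 layer 2-3 spots in purple, the 150 spots with the highest scores for layer 4 markers in orange, the 150 for layer 5 markers in green and all other kept spots in grey. The purple spots follow the outer edge of the cortex in each section, and the orange spots lie in part outside the cortex.

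Depth below the surface was measured as steps on the spot grid to the nearest array position without tissue. The median member lay 3 steps from such a position in each of the 4 sections, against 10, 7, 8 and 8 steps for the other kept spots. The 150 spots per section with the highest scores for layer 4 markers (Rorb, Rspo1, Scnn1a, Whrn and Il1rapl2) lay at medians of 6, 5, 6 and 5 steps, and those for layer 5 markers (Fezf2, Deptor, Parm1 and Bcl11b; Etv1 had no probe) at 9, 8, 8 and 8. The median depth thus increased from the layer 2-3 spots to the layer 4 marker spots to the layer 5 marker spots in each section. The layer 5 marker spots lay near the median of the other kept spots, so this order does not by itself show cortical layers. The layer 4 marker spots lie in part outside the cortex: thalamus markers summed to 542.2, 504.1, 780.9 and 654.8 CPM in them against 209.0, 178.5, 167.2 and 136.5 CPM in the layer 2-3 spots. In the layer 5 marker spots they summed to 251.0, 306.2, 263.5 and 192.2 CPM. Hypothalamus markers summed to 220.1, 513.0, 74.0 and 149.8 CPM there, against 153, 102, 50.1 and 81.8 CPM in the layer 2-3 spots. The layer 5 marker spots may therefore not be cortex alone. Members beyond 5 steps numbered 24, 25, 13 and 3. The steps also count the medial edge and gaps in the tissue, and in MF replicate 1 the 15 members on the first array row had a median of 9 steps, since the edge beside them was out of view.

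Genes outside the rule were compared between the members and the other kept spots as a ratio of CPM in each section, as a description with no test, since the same spots were chosen on their RNA. A higher ratio can come from more cells of a type or from more RNA per cell, and these cannot be told apart in spots. Of 7971 features with at least 20 CPM in the members, 113 (1.42%) were at least 2-fold higher in all 4 sections, and of 8441 with that level in the other spots, 277 (3.28%) were at least 2-fold lower. Igfn1, which encodes an immunoglobulin-like and fibronectin domain protein, led at 41.2, 46.7, 67.8 and 62.6 CPM in the members and 8.9, 7.7, 6.0 and 9.6 CPM elsewhere, log2 ratios from 2.21 to 3.50. Next came the serine protease inhibitor Serpinb8 (log2 ratio 2.11 to 2.59), the mTOR pathway regulator Ddit4l (2.08 to 2.46), the insulin-like growth factor binding protein Igfbp6 (2.02 to 2.28), Tmem215 (1.92 to 2.21), the ligand Wnt10a (1.85 to 2.12) and the transcriptional coregulator Cited4 (1.77 to 2.02). Met, the receptor of hepatocyte growth factor, had ratios from 1.65 to 1.96. Vip, a peptide of a class of cortical interneurons, stood at 136.0, 123.3, 129.7 and 120.8 CPM against 30.1, 40.5, 33.3 and 29.4 CPM. Vip differed little between the members of the 4 sections, whereas Igfn1 was lower in both MF sections than in both HF sections. The same held for 16.5% of all features in the diet comparison below, which did not call Igfn1.

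The label was checked against upper layer genes that the rule did not use. Of the 13 with at least 20 CPM, 11 were higher in the members in all 4 sections, with a median log2 ratio of 1.10, whereas 2257 of all 8610 features with that level were higher in all 4. Cux2, a homeobox gene of the upper layers, had ratios from 1.39 to 1.56, and Cux1, its relative, from 0.61 to 0.96. Rasgrf2, a guanine nucleotide exchange factor, had ratios from 1.35 to 1.69, Pou3f2 from 1.30 to 1.46, Lhx2 from 0.92 to 1.32 and the calcium buffer calbindin, Calb1, from 1.04 to 1.24. The exceptions included Wfs1, an endoplasmic reticulum protein, whose ratios ran from -0.18 to 0.26, and Mdga1, from -0.12 to 0.52. Otof, a calcium sensor of vesicle release that also marks superficial cells, ran from -1.12 to 0.33. Hence most upper layer genes, but not all of them, were higher in the members than in the rest of the section, which is mostly not neighbouring cortex.

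Genes of the layers below were lower or near the level of the other spots. Foxp2, a transcription factor of layer 6 neurons, had log2 ratios from -4.09 to -2.32, Tle4 from -1.20 to -0.55 and Hs3st4 from -1.47 to -1.002. Of the layer 5 genes, Fezf2, which directs the fate of neurons that project below the cortex, ran from -1.55 to -0.84, and Bcl11b from -1.32 to -0.9997. Rorb, a nuclear receptor of layer 4 neurons, ran from -0.11 to 0.41, and Rspo1 from -0.33 to 0.36, so the members and the other spots did not separate on them, whereas Whrn (-1.08 to -0.21) and Il1rapl2 (-1.49 to -0.44) were lower in all 4 sections. Nxph4, a subplate gene, ran from -2.90 to -2.29. At low CPM, the layer 4 marker Scnn1a ran from -3.27 to 0.07 and the layer 5 marker Deptor from -1.42 to 0.46. Thus the layer 5, layer 6 and subplate genes named, except Deptor, were lower in each section, and the layer 4 genes were divided. The other kept spots take in every other region of the section, so these ratios do not compare the members with neighbouring cortex.

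Layer 1 interneuron genes were divided. Npy, a peptide of interneurons, had log2 ratios from 0.58 to 1.08 and Id2 from 0.56 to 1.15. Reln, secreted by layer 1 cells, ran from -0.11 to 0.35 and Ndnf from -0.78 to -0.25. Among general neuronal genes, 9 of 10 excitatory neuron genes were higher in all 4 sections, with a median of 0.81. The postsynaptic calmodulin-binding protein Nrgn ran from 1.52 to 1.66, the transcription factor Mef2c from 1.54 to 1.74 and the vesicular glutamate transporter Slc17a7 from 0.54 to 0.76. Gad1, which makes GABA, was lower, from -0.49 to -0.19, and Calb2, calretinin, from -2.71 to -1.94. The members were therefore richer in excitatory neuron genes than the rest of the section, while interneuron genes were mixed. The 10 excitatory neuron genes summed to 8773, 8756, 9133 and 9458 CPM in the members. They summed to 7049, 6771, 7261 and 7297 CPM in the layer 5 marker spots and 6353, 5942, 5573 and 5534 CPM in the layer 4 marker spots. In the spots outside these sets they summed to 4733, 4477, 4631 and 4886 CPM, so the rise was not particular to the members.

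Ion channels and synaptic genes were described by lists. Of all 8610 features with at least 20 CPM in the members or the other spots, 2257 were higher and 3175 lower in all 4 sections. Of 37 potassium channel genes, the rule gene Kcnv1 included, 21 were higher in the members in all 4 sections and 8 lower. The ether-a-go-go family members Kcnh3 (log2 ratio 1.57 to 1.91), Kcnh4 (1.73 to 2.35), Kcnh5 (1.45 to 1.56) and Kcnh7 (1.30 to 1.52) were all among the higher ones. Of 25 glutamate receptor genes, the rule gene Cacng3 included, 12 were higher and 11 lower, for example the AMPA receptor subunit Gria3 (0.82 to 1.08) and the NMDA receptor subunit Grin2a (0.84 to 0.95) on one side and the kainate receptor subunit Grik1 (-1.77 to -1.10) on the other. Of 36 synapse adhesion genes, 22 were higher and 6 lower, with Lrrtm4, a postsynaptic organiser, at 1.06 to 1.15 and Cbln1, a synaptic organiser of the cerebellin family, at -2.17 to -1.72.

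Markers of other tissues were lower, where 3175 of all 8610 features were lower in all 4 sections. All 20 oligodendrocyte and myelin genes were lower in the members in all 4 sections, with a median log2 ratio of -1.81, as were all 6 thalamus markers (Prkcd, a protein kinase C of thalamic neurons, from -3.12 to -2.23), all 17 cholesterol synthesis genes (median -0.60) and all 4 meninges markers with enough UMIs. Choroid plexus markers summed to 475.0, 605.9, 549.6 and 558.5 CPM in the members and 2522.7, 2362.7, 3524.7 and 3939.9 CPM elsewhere. The myelin genes summed to 9529, 9775, 7695 and 5998 CPM in the members and 29726, 30926, 24455 and 26911 CPM in all other kept spots, so that some RNA of white matter or oligodendrocytes remained in the members of every section.

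**Figure D2:**
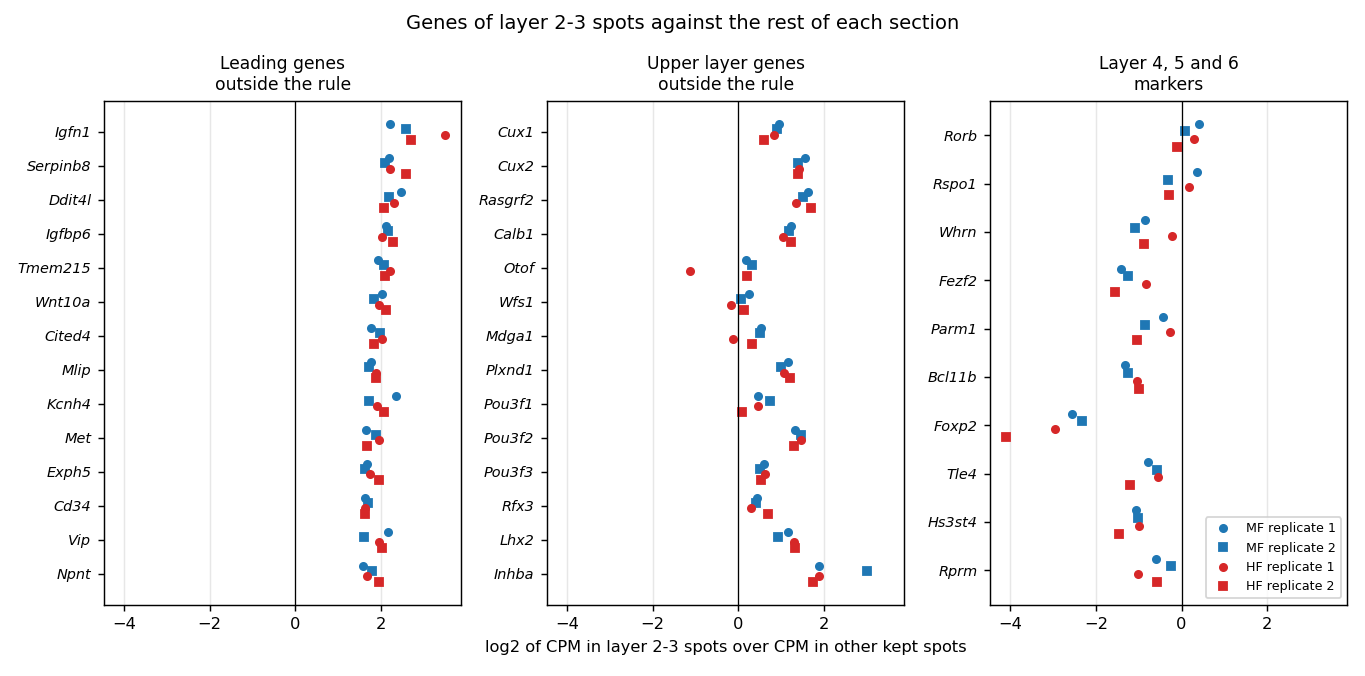
Log2 ratio of CPM in the layer 2-3 spots to CPM in the other kept spots, with 1 point for each of the 4 sections, for leading genes outside the rule, upper layer genes and 10 markers of layers 4, 5 and 6. Igfn1 leads the first panel with ratios from 2.21 to 3.50, and Foxp2 lies lowest in the last, from -4.09 to -2.32.

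To see how the members varied with depth below the surface, they were divided by steps in each section. The 75 members with the fewest steps (1 to 3 steps, shallow) were compared with the other 75 (3 steps or more, deep). The deep sets reached 14, 15, 15 and 8 steps and held the 24, 25, 13 and 3 members beyond 5 steps. The deep sets can therefore take in spots beyond layers 2 and 3. Members at 3 steps fell in both sets, divided by array row and then column, so the sets can also differ in position along the section. In MF replicate 1 the steps of the 15 members on the first array row (median 9) may overstate their depth, since the edge beside them was out of view. UMIs were summed per section and set and compared with edgeR's quasi-likelihood test with section as a block. Calls needed at least 1.2-fold and, after Benjamini-Hochberg adjustment over all features tested, a p under 0.05. Of 9656 features, 116 (1.2%) were called, 68 higher in the deep spots (0.704%) and 48 lower (0.497%), with a median log2 fold change over all features of -0.004.

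Among the genes higher in the deep spots were receptors, peptides and layer markers. Cartpt, a secreted peptide, rose from 34.1, 42.0, 40.6 and 16.9 CPM in the shallow spots to 120.3, 86.2, 86.9 and 56.0 CPM in the deep ones, a log2 fold change of 1.503 ± 0.144 (SE, edgeR adjusted p = 2.20e-08). Pld5, a phospholipase D family member, rose from 5.0, 5.5, 8.7 and 3.8 CPM to 25.9, 20.7, 19.5 and 22.8 CPM (2.09 ± 0.30, edgeR adjusted p = 3.09e-05). Every deep value of both genes lay above every shallow one. Htr2a, the serotonin 2A receptor, rose from 13.8, 9.9, 8.7 and 8.5 CPM to 28.8, 34.5, 37.5 and 21.8 CPM (1.44 ± 0.24, edgeR adjusted p = 2.93e-04). Cnih3, an auxiliary protein of AMPA receptors, rose from 50.1, 45.3, 37.7 and 39.5 CPM to 84.4, 94.2, 100.4 and 73.7 CPM (0.97 ± 0.13, edgeR adjusted p = 1.40e-05). Htr2a and Cnih3 likewise had every deep value above every shallow one. Plcxd2 (1.05 ± 0.12) and the heparan sulfate sulfotransferase Hs3st2 (0.99 ± 0.23) were called as well.

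Both layer 4 markers tested were higher in the deep spots. Rorb rose from 37.96, 49.7, 21.7 and 28.2 CPM to 92.5, 57.4, 107.9 and 58.1 CPM (1.17 ± 0.17, edgeR adjusted p = 3.09e-05), and Whrn, a scaffold protein, rose by a log2 fold change of 0.78 (edgeR adjusted p = 0.0402). Of 3 layer 5 markers, 2 were called higher, Fezf2 (1.40 ± 0.34, edgeR adjusted p = 0.0224) and Parm1 (0.74), and of 3 layer 6 markers 1, Hs3st4 (0.80). Fezf2 moved from 7.7, 11.1, 11.6 and 0.94 CPM to 17.3, 11.5, 27.0 and 25.9 CPM, a small difference in MF replicate 2, and its call was lost without any of MF replicate 1, HF replicate 1 or HF replicate 2. The remaining markers of these layers were not called, with log2 fold changes of 0.04 for Bcl11b, -0.08 for Tle4 and 0.31 for Rprm.

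On the shallow side, Trpc6, a cation channel, fell from 21.5, 34.2, 31.9 and 33.8 CPM to 9.1, 11.5, 16.5 and 13.5 CPM in the deep spots, a log2 fold change of -1.26 ± 0.23 (edgeR adjusted p = 0.000921). Grp, gastrin-releasing peptide, fell from 37.4, 39.8, 36.2 and 53.5 CPM to 20.6, 16.1, 25.5 and 17.6 CPM (-1.05, edgeR adjusted p = 0.00105). Meis2, a homeobox transcription factor, fell from 68.8, 78.4, 73.9 and 96.7 CPM to 40.8, 44.8, 42.0 and 42.5 CPM (-0.87 ± 0.13, edgeR adjusted p = 7.60e-05). For these 3 genes no deep value reached a shallow one. Igfn1, the leading gene of the members, fell from 61.1, 54.1, 87.0 and 78.0 CPM to 24.0, 39.1, 48.0 and 45.6 CPM (-0.91 ± 0.15, edgeR adjusted p = 2.89e-04), and so lay mainly in the outer spots. Zfpm2 (-0.95), the palmitoyltransferase Zdhhc23 (-0.88), the Wnt signalling enhancer Rspo3 (-0.86) and the secreted Metrnl (-0.82) were called too. Npy fell by 0.33 (edgeR adjusted p = 0.0338) and was the call among 5 layer 1 interneuron genes, of which Reln had a log2 fold change of -0.009 and was higher in the deep spots of 2 sections.

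Upper layer genes did not pass the test along this axis: 0 of 13 were called, 11 of 13 were lower in the deep spots, and their median was -0.11. Cux2 had -0.16, Cux1 0.17, Rasgrf2 -0.11 and Lhx2 -0.29 (edgeR adjusted p = 0.124). None of the immediate early or myelin genes was called either, and the median of the myelin genes was 0.00. Of the 16 genes with the largest changes, 11, 14, 10 and 11 kept their call when MF replicate 1, MF replicate 2, HF replicate 1 or HF replicate 2 was left out, while the number of calls was 60, 166, 55 and 53. With DESeq2, 4 of the 16 kept theirs, and none changed direction under any setting.

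**Figure D3:**
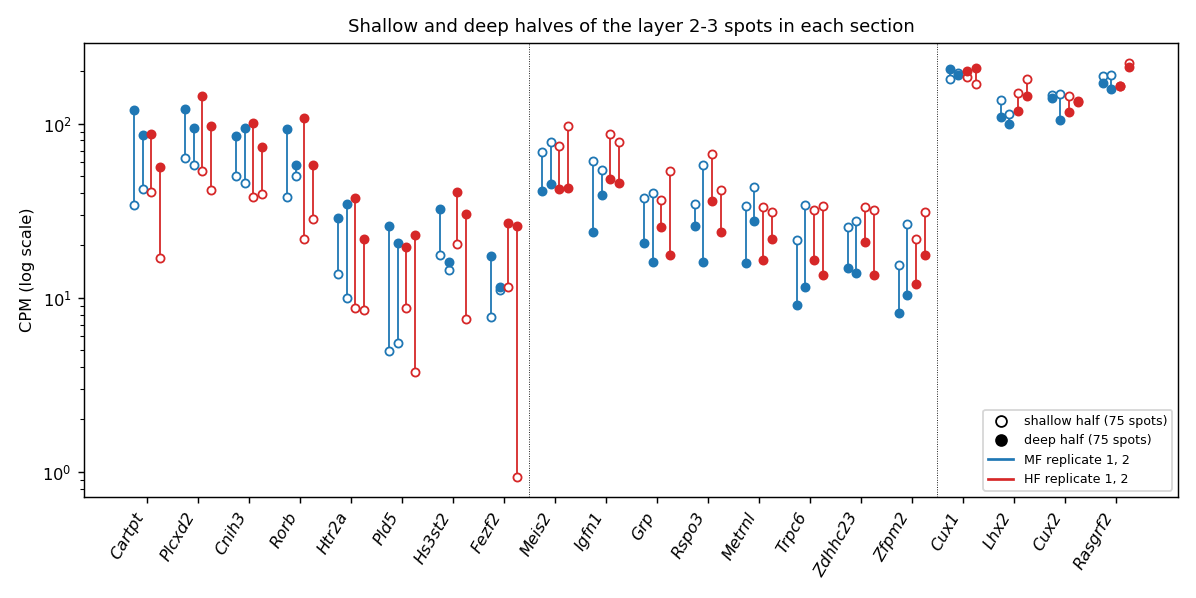
CPM of 20 genes on a log axis in the 75 shallow (open points) and 75 deep (filled points) layer 2-3 spots of each of the 4 sections. The 8 called genes that were higher and the 8 that were lower in the deep spots with the largest changes are followed by the upper layer genes Cux1, Lhx2, Cux2 and Rasgrf2, which were not called.

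The diet comparison asked whether RNA levels in the superficial cortex of the offspring differed between the HF and MF groups. UMIs of the 150 members were summed per section and the 2 HF sums compared with the 2 MF sums by edgeR's quasi-likelihood test, with the same thresholds. Of 11090 features tested, 31 (0.28%) were called, 14 higher in the HF group (0.126%) and 17 lower (0.153%), and 850 (7.66%) had an unadjusted p under 0.05. The median log2 fold change over all features was 0.004, and 50.8% were higher. The higher genes included 5 immediate early transcription factors, 2 activity-induced effectors and 4 clock genes, and 8 of the 17 lower genes were genes of myelin. Kcnv1 is among the 14 but is a rule gene, so its difference (0.49 ± 0.11) was not read. With 2 sections per diet an exact permutation test of a single gene cannot give a p under 0.333, so the calls lean on a spread that edgeR shares among genes.

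Of the immediate early transcription factors, 5 rose in the HF group, and Egr1 and Fos had the largest rises of all called genes. Egr1, a zinc finger factor, had 108.9 and 105.3 CPM in the MF sections and 411.1 and 709.8 CPM in the HF sections, a log2 fold change of 2.41 ± 0.15 (5.33-fold, edgeR adjusted p = 4.51e-15). Both HF sections lay far above both MF sections, and the HF sections differed from each other more than the MF sections did. Fos, a subunit of the AP-1 factor, had 4.10 and 5.63 CPM (16 and 10 UMIs) in the MF group and 25.8 and 21.2 CPM (35 and 43 UMIs) in the HF group, 2.33 ± 0.32 (5.03-fold, edgeR adjusted p = 2.75e-05). Junb, another AP-1 subunit, rose from 32.5 and 37.2 CPM to 122.3 and 62.6 CPM (1.39 ± 0.20, edgeR adjusted p = 3.46e-05). The nuclear receptors Nr4a1 and Nr4a3, which act without a known hormone, rose as well. Nr4a1 went from 56.4 and 56.3 CPM to 150.3 and 107.9 CPM (1.18 ± 0.15, edgeR adjusted p = 3.04e-06) and Nr4a3 from 21.3 and 20.8 CPM to 47.1 and 59.2 CPM (1.37 ± 0.19, edgeR adjusted p = 3.46e-05). Junb and Nr4a1 were highest in HF replicate 1, whereas Egr1 and Nr4a3 were highest in HF replicate 2. All 5 calls held when any of the 4 sections was left out, although for Fos and Nr4a3 they were lost when each spot was thinned to 5000 UMIs.

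Not every immediate early gene followed. Of 22 listed, 18 had enough UMIs to be tested, 16 of them had both HF sections above both MF sections, against 16.5% of all features, 5 were called and the median log2 fold change was 0.75. The exceptions were Egr3, with 146.8 and 138.0 CPM in the MF group and 150.3 and 119.3 CPM in the HF group (-0.09), and Jund (-0.05). Egr4 had 62.3 and 61.9 CPM against 92.8 and 89.2 CPM (0.56 ± 0.14), which missed the threshold with an edgeR adjusted p of 0.0782. Egr2 had 3.33 and 3.94 against 13.3 and 8.87 CPM (1.60, edgeR adjusted p = 0.078), Btg2 had 10.0 and 9.57 against 33.2 and 12.8 CPM (1.13), and Npas4 had a log2 fold change of 0.90, none of them called. The median of the list ran from 0.55 without HF replicate 1 to 1.16 without HF replicate 2, and it stayed above 0 under every setting tried.

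The 250 bases before the start of 5 of the called genes are shown because they hold the letters TGACG, or CGTCA on the other strand, the core of the site that the activity-dependent factor CREB is known to bind. They are from RefSeq (GRCm38.p6), 5′ to 3′ on the strand of the gene, with these letters in capitals, as well as CACGTG, the E-box of the clock factors, where it occurs.
Fos, chr12:85473640-85473889, plus strand: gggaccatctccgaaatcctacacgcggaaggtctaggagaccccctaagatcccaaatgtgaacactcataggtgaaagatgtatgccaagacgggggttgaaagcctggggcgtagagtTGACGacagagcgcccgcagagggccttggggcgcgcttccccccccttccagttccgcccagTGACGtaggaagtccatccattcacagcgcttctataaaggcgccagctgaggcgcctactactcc
Junb, chr8:84978749-84978998, minus strand: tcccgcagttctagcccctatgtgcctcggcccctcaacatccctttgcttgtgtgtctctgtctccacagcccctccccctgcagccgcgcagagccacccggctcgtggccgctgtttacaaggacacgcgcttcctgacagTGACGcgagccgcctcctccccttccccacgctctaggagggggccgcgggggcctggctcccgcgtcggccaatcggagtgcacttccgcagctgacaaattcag
Nr4a1, chr15:101266596-101266845, plus strand: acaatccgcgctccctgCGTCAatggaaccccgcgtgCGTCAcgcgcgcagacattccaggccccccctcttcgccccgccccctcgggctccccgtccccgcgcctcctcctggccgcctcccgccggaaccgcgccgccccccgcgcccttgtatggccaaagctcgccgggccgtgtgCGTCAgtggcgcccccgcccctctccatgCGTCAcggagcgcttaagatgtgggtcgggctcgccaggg
Nr4a3, chr4:48045055-48045304, plus strand: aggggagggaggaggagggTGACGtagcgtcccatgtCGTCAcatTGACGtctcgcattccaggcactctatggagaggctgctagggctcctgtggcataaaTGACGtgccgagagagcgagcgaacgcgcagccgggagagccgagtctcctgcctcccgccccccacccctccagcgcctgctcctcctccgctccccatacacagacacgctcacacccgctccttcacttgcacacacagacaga
Per1, chr11:69098699-69098948, plus strand: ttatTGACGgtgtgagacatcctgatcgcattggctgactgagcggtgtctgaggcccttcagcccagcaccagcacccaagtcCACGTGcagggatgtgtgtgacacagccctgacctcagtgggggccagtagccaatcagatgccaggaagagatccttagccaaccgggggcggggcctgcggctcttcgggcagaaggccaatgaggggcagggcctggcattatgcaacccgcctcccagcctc
Of the 14 genes called higher, 9 had a promoter in the table and 5 of these 9 held TGACG on either strand. Of the 17 called lower, 13 had a promoter and 1 held it. Over all genes of the table, 19.79% of 27025 held it, and over the tested genes 31.18% of 8749. CACGTG, which reads the same on both strands, was found in 1 of the 9 (Per1), in 2 of the 13 called lower, in 6.86% of all genes and in 10.28% of the tested genes. The full palindrome TGACGTCA was found in 0 of the 9, 1 of the 13, 1.769% of all genes and 3.166% of the tested genes. These counts describe letters in a window of 250 bases and do not show that a factor was bound.

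To see whether the higher sums came from few or many spots, each member was thinned to 5000 UMIs, which left 150, 148, 129 and 149 members. At least 1 UMI of Egr1 was then found in 44.0%, 40.5%, 84.5% and 94.6% of them, with exact 95% binomial intervals of 35.9% to 52.3%, 32.6% to 48.9%, 77.1% to 90.3% and 89.7% to 97.7% that cover counting error only. At full depth the shares were 88.0%, 70.7%, 92.7% and 99.3%, and in the other spots, thinned in the same way, 19.6%, 24.2%, 47.1% and 69.6%. Egr1 was thus present in most members of the HF group and fewer of the MF group at equal depth. Fos was found in 2.00% (interval 0.41% to 5.73%), 2.70% (0.74% to 6.78%), 12.4% (7.26% to 19.4%) and 7.38% (3.74% to 12.8%) of members, and in 3.20%, 3.26%, 6.80% and 5.80% of the other spots. The share of members with Fos was below that of the other spots in both MF sections, from 3 and 4 members, and above it in both HF sections. The interval took in the share of the other spots in every section but HF replicate 1. It covers counting error within 1 section only, so no difference between members and other spots was tested in any section. Junb was found in 16.7%, 19.6%, 41.9% and 25.5% of members, and Nr4a1 in 18.7%, 27.7%, 48.8% and 36.9%.

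Activity-induced effectors are the proteins that act after these factors, many of them at synapses. Of 25 listed, 23 were tested, 19 were higher in the HF group, 2 were called and the median was 0.39. Arc, which acts at synapses on the uptake of AMPA receptors, had 44.8 and 34.9 CPM in the MF group and 174.6 and 65.6 CPM in the HF group (1.48 ± 0.23, edgeR adjusted p = 0.0001). HF replicate 1 stood well above HF replicate 2 here, and thinned members with Arc made up 23.3%, 12.8%, 57.4% and 27.5%. Dusp6, a phosphatase that turns off ERK kinases, had 80.2 and 67.6 against 163.5 and 124.7 CPM (0.93 ± 0.14, edgeR adjusted p = 5.47e-05). Dusp4 (1.14, edgeR adjusted p = 0.054) and Dusp1 (0.97, edgeR adjusted p = 0.109), related phosphatases, missed the threshold. Bdnf, a neurotrophin, had 76.3 and 92.3 against 121.6 and 96.6 CPM (0.39, edgeR adjusted p = 0.400). Values near 0 or below it were found for the synaptic scaffold gene Homer1 (0.01), the neuritin gene Nrn1 (0.04), the pentraxin Nptx2 (-0.25), the granin Scg2 (-0.24) and the secreted peptide precursor Vgf (-0.19), none called.

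Genes of the circadian clock formed the other group among the higher genes. The clock is a loop in which CLOCK and ARNTL activate, and the period, cryptochrome and REV-ERB proteins repress. Per1, a period gene, had 48.4 and 47.3 CPM in the MF group and 84.7 and 98.6 CPM in the HF group (0.96 ± 0.15, edgeR adjusted p = 0.000143). Per2 had 25.1 and 20.8 against 49.4 and 51.3 CPM (1.11 ± 0.19, edgeR adjusted p = 0.000752). Bhlhe40, a repressor at E-boxes that also responds to activity, had 112.5 and 136.3 against 177.5 and 227.7 CPM (0.76 ± 0.13, edgeR adjusted p = 0.000375). The HF sections of each of these 3 genes lay above both MF sections and close to each other for Per1 and Per2. Nr1d1, which encodes REV-ERB alpha, had 90.7 and 80.5 against 106.8 and 157.2 CPM (0.65 ± 0.14, edgeR adjusted p = 0.0174). Its call was lost without MF replicate 1, MF replicate 2 or HF replicate 2, and that of Bhlhe40 without MF replicate 1 (0.60). Of 18 clock genes tested, 4 were called, 14 were higher and the median was 0.13. The activators Clock (0.01), Arntl (-0.13) and Npas2 (-0.15), the period gene Per3 (0.08) and the cryptochromes Cry1 (0.13) and Cry2 (0.10) had values near 0, while Nr1d2 had 82.0 and 90.7 against 117.1 and 125.7 CPM (0.53, edgeR adjusted p = 0.065). The time of day at which tissue was taken was not found in the sources used here.

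Genes of oligodendrocytes and myelin were lower in the HF group, and 8 of 20 fell past the threshold. All 20 were lower, with a median log2 fold change of -0.49, 14 had both HF sections below both MF sections, against 19.5% of all features. Mal, a proteolipid of compact myelin, had 441.9 and 413.9 CPM in the MF group and 280.7 and 231.2 CPM in the HF group (-0.74 ± 0.11, edgeR adjusted p = 4.32e-05). Mbp, myelin basic protein, had 2959 and 3161 against 2493 and 1902 CPM (-0.47 ± 0.09, edgeR adjusted p = 0.00561). HF replicate 2 was the lowest section for both genes and for the summed list. Also called were Tspan2, a tetraspanin of oligodendrocytes (-0.69), Trf, the iron carrier transferrin (-0.68), Mog, a glycoprotein of the outer myelin surface (-0.62), Cldn11, a tight junction protein of myelin (-0.59), and Mobp (-0.52). Ermn (-0.88), Opalin (-0.63) and Ugt8a (-0.62) had adjusted p-values (edgeR) from 0.063 to 0.079 and were not called, and Myrf, the transcription factor of myelination, had -0.04. The calls of Mal, Mobp and Mbp held without any of the 4 sections. Those of Tspan2 and Trf were lost without MF replicate 1, that of Mog without MF replicate 1 or HF replicate 2, and that of Cldn11 without MF replicate 1, MF replicate 2 or HF replicate 2.

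Markers of other cell types gave no call between the diets. The summed myelin genes stood at 9529, 9775, 7695 and 5998 CPM, the 10 astrocyte markers at 3382, 2872, 3309 and 2713 CPM (median log2 fold change -0.12), and the 9 vessel markers at 388.1, 348.6, 354.3 and 281.9 CPM (-0.35, 8 of 9 lower). The 4 meninges markers tested were all lower with a median of -0.50, as large as that of the myelin genes, and all 7 listed summed to 64.6, 76.0, 50.8 and 50.3 CPM. None of the astrocyte, microglia, vessel, meninges or blood markers was called. The 10 excitatory neuron genes summed to 8773, 8756, 9133 and 9458 CPM, 9 of 10 were higher and none was called (median 0.14). The summed vessel markers overlapped between the diets, since HF replicate 1 lay above MF replicate 2. Of the 10 excitatory neuron genes, 3 had both HF sections above both MF sections, against 16.5% of all features. The part of these levels in the other results was not tested.

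Further called genes belong to no single group. Stk38, a serine/threonine kinase, had 9.74 and 12.4 against 17.7 and 37.0 CPM (1.44 ± 0.29, edgeR adjusted p = 0.00561), and the pseudokinase Trib2 had 37.2 and 40.0 against 66.3 and 59.6 CPM (0.72 ± 0.17, edgeR adjusted p = 0.0308). Apod, a lipid-carrying lipocalin, fell from 164.5 and 185.8 to 85.5 and 99.1 CPM (-0.88 ± 0.13, edgeR adjusted p = 3.46e-05), and Abca1, a cholesterol exporter, from 52.0 and 46.2 to 27.3 and 26.6 CPM (-0.87 ± 0.19, edgeR adjusted p = 0.0172). The call of Apod held without any of the 4 sections, whereas that of Stk38 was lost without MF replicate 1 or HF replicate 2, that of Trib2 without MF replicate 1 or MF replicate 2, and that of Abca1 without MF replicate 1 or HF replicate 2. Btaf1, an ATPase that acts on the TATA-binding protein, fell from 78.9 and 93.5 to 40.5 and 52.2 CPM (-0.83 ± 0.16, edgeR adjusted p = 0.00443), a call lost without MF replicate 2. Mt2, a metallothionein, fell from 436.8 and 325.5 to 282.2 and 187.8 CPM (-0.72 ± 0.13, edgeR adjusted p = 0.00174), a call lost without MF replicate 1, and Pcp4, a regulator of calmodulin, from 393.7 and 388.5 to 265.2 and 258.8 CPM (-0.57 ± 0.10, edgeR adjusted p = 0.00174), a call lost without MF replicate 1 or MF replicate 2. Lrrc32, a binding partner of latent TGF-beta, had 15.6 and 11.3 against 5.89 and 3.45 CPM (-1.64 ± 0.39, edgeR adjusted p = 0.0454) and lost its call without MF replicate 1 or HF replicate 2.

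The remaining lower genes are mainly expressed outside the cortex. Pmch and Hcrt, peptides of lateral hypothalamic neurons, had 131.4, 83.3, 35.4 and 0 CPM (513, 148, 48 and 0 UMIs) and 11.8, 5.63, 2.95 and 0 CPM (46, 10, 4 and 0 UMIs) in the members, with log2 fold changes of -2.93 ± 0.36 (edgeR adjusted p = 3.04e-06) and -2.96 (edgeR adjusted p = 0.0146). The call of Hcrt was lost without HF replicate 2. In all other kept spots of the same sections, Pmch stood at 713.6, 515.1, 332.2 and 0.741 CPM and Hcrt at 79.4, 84.1, 66.2 and 0.247 CPM. Both peptides were thus nearly missing from the whole of HF replicate 2, and in every section they were lower in the members than around them. Avp and Oxt, peptides of other hypothalamic neurons, went the other way in that section. Avp stood at 1.54, 1.69, 2.95 and 30.1 CPM (6, 3, 4 and 61 UMIs) in the members and 2.90, 2.68, 11.7 and 490.7 CPM elsewhere, and Oxt at 0.256, 0.563, 0 and 44.9 CPM (1, 1, 0 and 91 UMIs) in the members and 0.719, 4.26, 1.25 and 667.4 CPM elsewhere. HF replicate 2 therefore stood apart from the other sections in its hypothalamic RNA. Prkcd had 72.0, 64.8, 42.7 and 30.6 CPM in the members (-0.94 ± 0.17, edgeR adjusted p = 0.00208, lost without MF replicate 1 or HF replicate 2) and 338.1, 368.5, 371.3 and 192.3 CPM elsewhere, and all 6 thalamus markers tested were lower, 1 of them called (median -0.15). The part that RNA from outside the cortex had in these 3 differences was not tested.

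Lists tied to folate gave no call. Of 29 measured folate and one-carbon genes, 22 were tested, 10 were higher and 12 lower, with a median of -0.02, and of 12 DNA methylation genes the median was 0.01. The 25 glutamate receptor genes (median -0.03), the 14 GABA receptor genes (0.01), the 36 synapse adhesion genes (0.04) and the 12 interneuron markers (-0.04) had no called member either, with medians near that of all features. The 17 cholesterol synthesis genes had a median of -0.13, 14 of them lower, and the 15 heat shock and folding genes -0.06, 11 of them lower, also with 0 called by edgeR. Of the upper layer genes, 14 were tested with a median of 0.03 and none was called. Of 11 glucocorticoid-induced genes, Mt2 was called, and the median was -0.15.

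**Figure D4:**
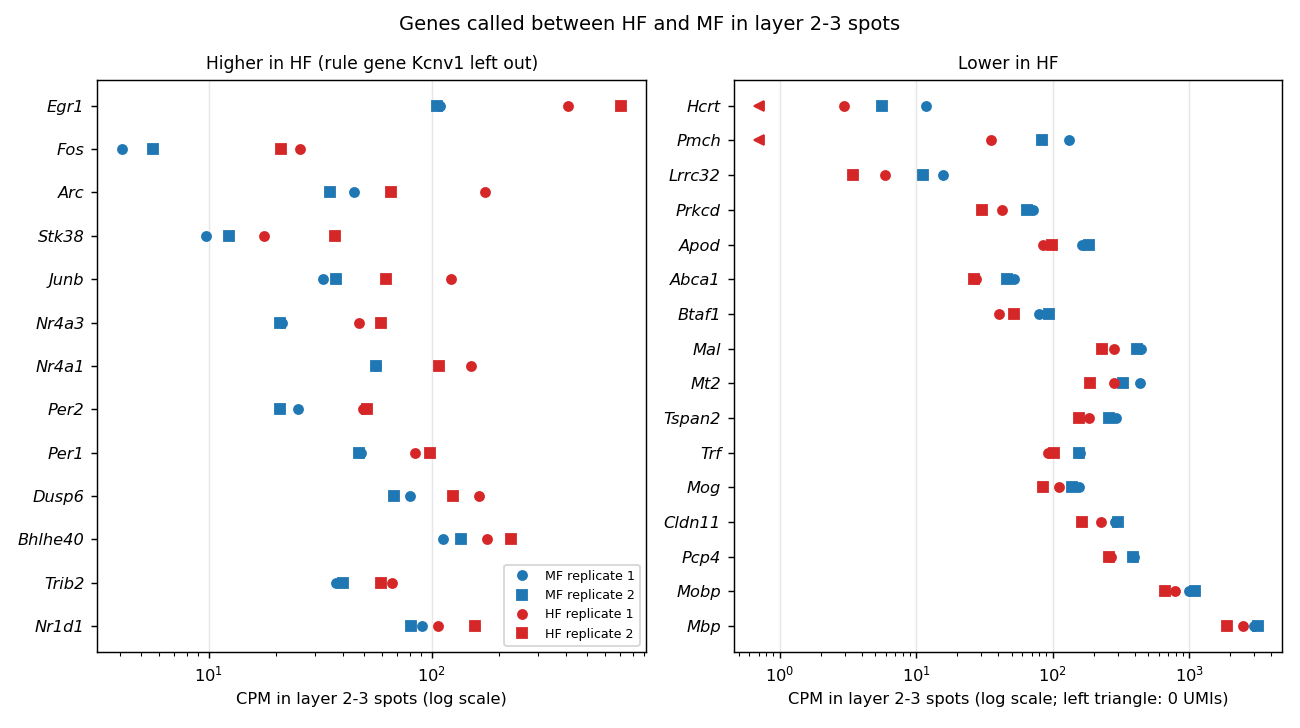
CPM on a log axis in the 150 layer 2-3 spots of each section, for genes called higher (the rule gene Kcnv1 left out) and genes called lower in the HF group, with 2 points per diet. The points of the HF and MF groups do not overlap for any of these genes, and the left triangles mark 0 UMIs of Pmch and Hcrt in HF replicate 2.

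The calls depended on single sections. Without HF replicate 1 there were 239 calls, among them all 31, and without MF replicate 1, the deepest section, there were 18, of which 16 were among the 31. Without MF replicate 2 and without HF replicate 2 the numbers were 29 and 33, each sharing 23. DESeq2 called 12, all among the 31, and lost those of Junb, Arc and Per2 among others. With 250 spots per section there were 11 calls, 10 of them among the 31, and those of Junb, Arc and Per1 were lost. With only the members at 1 to 5 steps, a setting added after the data were seen, there were 46 calls, 29 of them among the 31.

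The last question was whether these differences were particular to the layer 2-3 spots. In the same sections, 17 of 11295 features (0.151%) were called in the layer 4 marker spots, 13 of 11124 (0.117%) in the layer 5 marker spots and 0 of 14861 in the sum of all other kept spots. These counts do not show a difference between the sets, which was tested as the difference between their log2 fold changes in a single edgeR fit over the 16 sums with section as a block. Against all other spots, 2 of 11968 features (0.0167%) were called and 632 (5.28%) had an unadjusted p under 0.05, and DESeq2 called 0. Bhlhe40, with 114.0, 113.2, 106.7 and 132.9 CPM in the other spots, had a log2 fold change of 0.07 there and 0.76 in the members, a difference of 0.69 ± 0.11 (edgeR adjusted p = 0.00507). Junb, with 27.3, 28.6, 50.8 and 33.3 CPM in the other spots, had 0.58 there, a difference of 0.82 ± 0.16 (edgeR adjusted p = 0.0359). In the layer 4 marker spots Bhlhe40 had 0.21 and in the layer 5 marker spots 0.50, and its differences of 0.58 and 0.28 from them were not called (edgeR adjusted p = 0.107 and 0.9999). Junb had 0.65 and 0.63 there, and its differences of 0.74 and 0.76 were not called either (edgeR adjusted p = 0.297 and 0.403). The call of Bhlhe40 was lost without MF replicate 1 (0.51) or HF replicate 2 (0.68), and that of Junb without MF replicate 1 (0.74), MF replicate 2 (0.87) or HF replicate 1 (0.63).

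For the remaining genes a difference between the members and the other spots was not called. Egr1 had log2 fold changes of 2.41 in the members, 2.20 in the layer 4 marker spots, 2.29 in the layer 5 marker spots and 2.19 in all other spots, and its difference from the latter was 0.21 (edgeR adjusted p = 0.928). Fos had 2.33, 1.60, 0.64 and 1.03 in the same order (difference from the other spots 1.32, edgeR adjusted p = 0.332) and Per1 0.96, 0.56, 0.47 and 0.30 (0.66, edgeR adjusted p = 0.124). Egr1 was high in the HF group wherever it was measured, and the values of Fos and Per1 were largest in the members without passing the test. Stk38 (1.44, 1.37, 1.53 and 1.44), Btaf1 (-0.83, -0.92, -1.07 and -0.92) and Mt2 (-0.72, -0.66, -0.76 and -0.71) had like values in all 4 sets. Mbp had -0.47, -0.03, -0.17 and -0.23, and its difference from the other spots was -0.25 (edgeR adjusted p = 0.658). For the immediate early transcription factors the median difference from the other spots was 0.54, with 15 of 19 above 0, for the myelin genes -0.27, with 19 of 20 below 0, and for the clock genes 0.11, with 13 of 18 above 0. The median difference over all features was 0.00, with 6010 of 11968 above 0. Within the other spots the 3 lists moved in the same directions as in the members. Their median log2 fold changes of HF over MF there were 0.33 (18 of 21 higher), -0.24 (19 of 20 lower) and 0.06 (11 of 18 higher).

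Against the layer 5 marker spots, 0 of 11968 features were called by edgeR or by DESeq2, with 570 (4.76%) at an unadjusted p under 0.05. Those spots, too, carried more thalamus and hypothalamus marker RNA than the members. Against the layer 4 marker spots, which lie in part outside the cortex, 11 (0.0919%) were called and 933 (7.8%) had an unadjusted p under 0.05. DESeq2 called 12, of which 6 were among the 11. With DESeq2 9 differences were higher in the members and 3 lower, whereas with edgeR 3 were higher and 8 lower. Pcp4 fell in the members (-0.57) but had 949, 804, 1055 and 837 CPM in the layer 4 marker spots, a difference of -0.64 (edgeR adjusted p = 0.00652), a call lost without MF replicate 2. Mbp had 5318, 6386, 6403 and 5116 CPM there, a log2 fold change of -0.03, and the difference was -0.44 (edgeR adjusted p = 0.0309), lost without MF replicate 1. Of the 11 calls, 1 was kept without MF replicate 1 (Pcp4) and 3 without HF replicate 2.

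**Figure D5:**
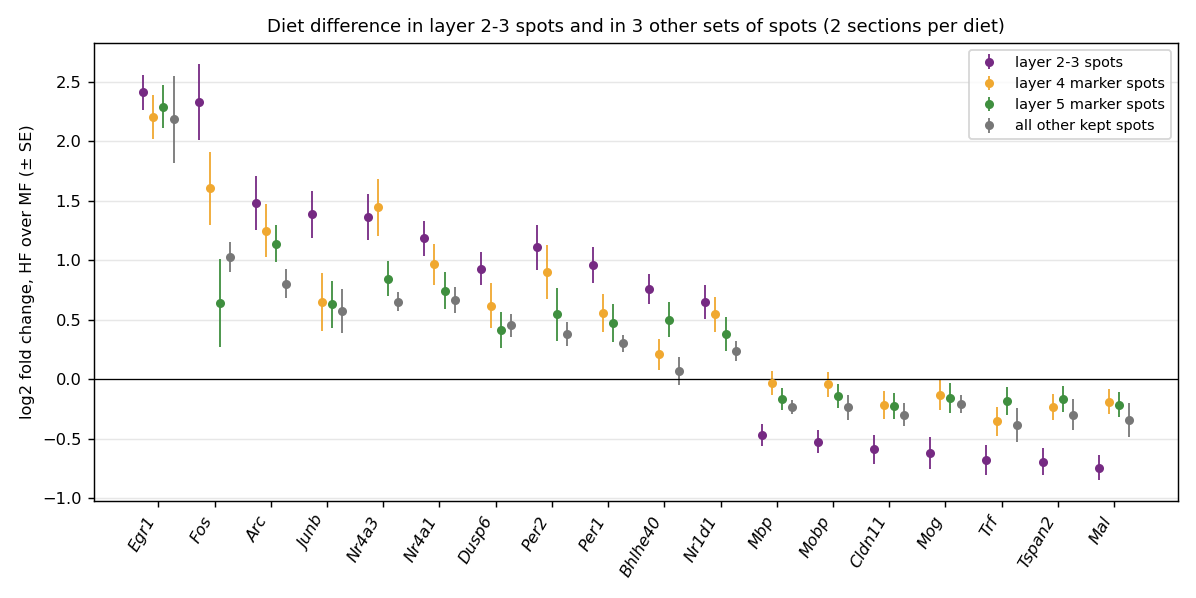
Log2 fold change of HF over MF for 18 genes in the layer 2-3 spots, the layer 4 marker spots, the layer 5 marker spots and all other kept spots, with points for the edgeR estimate and bars for ± 1 SE over 2 sections per diet. Egr1 lies between 2.19 and 2.41 in all 4 sets, and Bhlhe40 lies at 0.76 in the layer 2-3 spots, 0.21 in the layer 4 marker spots, 0.50 in the layer 5 marker spots and 0.07 in the other spots.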

How the data were processed

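Counts were deposited by the authors as raw UMI counts per feature and spot, with no normalization, from Space Ranger 2.0.0 and mm10 (GRCm38), together with spot positions. Probes read only the part of a transcript they bind, and UMIs were counted once each. Values per feature that Space Ranger gives for spatial autocorrelation were not used here. The members and gene lists were chosen with earlier results of these data known, and the section numbers did not pair the samples (correlation of deviations 0.03).

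Spots under 500 UMIs or 250 genes were removed, which left 13452 of 13470. UMIs were summed per section and spot set, since spots of 1 section are not replicates. The sums, of 1357431 to 3903547 UMIs for the layer 2-3 spots, were compared with edgeR 4.0.16 (R 4.3.3) by the quasi-likelihood test, with TMM, filterByExpr, Benjamini-Hochberg adjustment over all tested features and a minimum of 1.2-fold. CPM are UMIs per 1000000 of such a sum. The layer 4 and layer 5 marker spots were the 150 spots per section with the highest scores of the same form, members left out. Named genes were the 15 called genes that changed most each way, the called members of the lists and up to 4 further members of each with the highest CPM; along depth, the 8 that changed most each way; against other layers the 5 with the smallest adjusted p; and against other spots the 15 highest and 8 lowest. Further genes of the lists were named after their values were seen. The thresholds are those of the study, which tested single spots.

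Alternatives were DESeq2 1.42.0, library size alone, no filter on low counts, a replicate block, thinning to 5000 UMIs, members chosen on thinned spots, 100 or 250 members, members with 2 member neighbours and each section left out. After seeing the data, full depth for the shares of spots, a fit without the rule genes and members at 1 to 5 steps were added. The scripts were tested on simulated data. Gene positions and promoters came from GENCODE vM21 and RefSeq GRCm38.p6, and 19451 of 19465 features were matched. Some genes are not reported here.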

Additional observations from a re-analysis of the deposited data

Results flagged for a closer look

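The diet effect (log2 fold change of HF over MF) in the layer 2-3 spots differed from that in another set of spots, by the edgeR test of the difference itself, for 2 genes against all other spots and 11 against the layer 4 marker spots. Against all other spots the differences were 0.69 for Bhlhe40 (edgeR adjusted p = 0.00507) and 0.82 for Junb (edgeR adjusted p = 0.0359).

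Against the layer 4 marker spots, which lie in part outside the cortex, the diet effect in the layer 2-3 spots was higher for 3 genes. The differences were 0.39 for Camk2n1, an inhibitor of CaM kinase II, 0.57 for Lmo4, a LIM domain regulator of transcription, and 0.53 for Itpka, an inositol trisphosphate kinase of dendritic spines. Camk2n1 had 4453, 3669, 3661 and 3333 CPM in the layer 4 marker spots. The effect was lower for 8 genes, with differences of -0.64 for Pcp4, -0.49 for Nap1l5, -2.68 for Six3, -1.02 for Prkcd, -0.44 for Mbp, -0.99 for Nnat, -2.30 for Zfp618 and -0.49 for Mobp. Six3, a homeobox gene of the forebrain, had 15.02, 17.3, 40.3 and 88.3 CPM in the layer 4 marker spots, and Nnat, an imprinted gene, 365, 489, 607 and 819 CPM, so that in these spots both were higher in each HF section than in each MF section. Of the 11 calls, 1 was kept without MF replicate 1, where 2 were called in all, and 3 were kept without HF replicate 2.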

How the results depend on the processing

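With 2 sections per diet, at most 3903547 UMIs per sum and a choice of members that rests partly on depth, the number of calls moved more than the values. The 31 diet calls became 12 with DESeq2, 72 with no filter on low counts, 20 after thinning, 19 with 100 and 11 with 250 spots per section, and 84 with members that had 2 member neighbours. They ranged from 18 to 239 when a section was left out, 239 being without HF replicate 1 and 18 without MF replicate 1. The replicate block gave 58 calls, among them all 31, and the numbers are only a label. Against all other spots, 2 calls became 1 with library size alone, 18 with no filter, 0 with DESeq2, 0 after thinning and 1 to 24 without a section. Against layer 5 marker spots, 0 became 10 with no filter, 1 after thinning and 0 to 9 without a section. Against layer 4 marker spots, 11 became 54 with no filter and 2 to 32 without a section. Between deep and shallow spots, 116 became 15 with DESeq2, 28 after thinning, 180 with 2 member neighbours and 53 to 166 without a section. The share of neighbours that were members moved from 48.2% to 33.5% when members were chosen on thinned spots. Of the other alternative values, for single genes, lists and shares of spots, 531 held, 151 lost a call and 21 moved, and no value changed direction. The cause of these changes was not tested.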
